A study of Mus musculus with 12 samples.

Results

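Whether the loss of Dscr-1 acts in the same way in a liver with and without ApoE was examined by the interaction of both null mutations. For each gene the interaction was (double null minus ApoE null) minus (Dscr-1 null minus wild type, WT), on the scale of log2(signal + 16). A value of 0 means that the effects of both mutations add up on the log2 scale. The genes described here are those with a signal of 50 or more on all 8 liver arrays: 6462 genes of 14758 tested and of 18193 named on the array. Signals are linear array intensities without a physical unit, scaled so that the mean of each array, after trimming 2% at either end, was 100.0.

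The arrays covered 4 genotypes of adult C57BL/6J mice with 2 arrays each: WT, Dscr-1-/- (Dscr-1 null), ApoE-/- (ApoE null) and mice that carried both mutations (double null). Null alleles are carried by every cell of the animal, so that a difference in liver RNA need not start in hepatocytes. The labels give a high fat diet (HFD) for all 8 liver samples, with 12 weeks of feeding, whereas the text of the study describes normal chow for its liver arrays, so the diet is not settled. No label says whether the 2 arrays of a genotype came from separate litters, and the p-values measure the spread between these arrays alone.

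Dscr-1, encoded by Rcan1, is a feedback inhibitor of calcineurin, the phosphatase that sends NFAT transcription factors into the nucleus. ApoE is the ligand with which the liver takes up remnant lipoproteins, and mice without it accumulate cholesterol in plasma. The hepatocyte answers a lipid load through SREBP factors, which control sterol and fatty acid synthesis, and through PPAR-alpha, which controls fatty acid oxidation, while resident macrophages, the Kupffer cells, take up lipid and present antigen.

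The deleted genes were read first. Apoe signal was between 19937.4 and 21510.3 on the 4 arrays with the gene intact, 305.0 and 177.1 in the ApoE null and 83.7 and 79.8 in the double null. Rcan1 did not separate by its label: its brighter probe set gave 210.0 and 133.7 in WT, 255.2 and 353.1 in the Dscr-1 null, 496.5 and 176.7 in the ApoE null, and 491.5 and 209.5 in the double null. Where its probes lie relative to the deleted part is not stated, so that probe set does not check the Dscr-1 label. Hepatocyte markers were bright throughout, with Alb between 27526.8 and 64005.7, and the Y-linked Eif2s3y was between 197.2 and 409.3 on all 8 arrays. ApoE null replicate 1 stood apart from the rest, with a median signal of 44.7 against 32.2 to 37.6 on the other arrays and a mean correlation with them of 0.835 against 0.873 to 0.883. For some of the genes and lists whose value it moved, though not for all, the value without it is given.

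No gene passed the test for an interaction. By limma with Benjamini-Hochberg adjustment over all probe sets above the filter, 0 members lay above 0 and 0 below it at an adjusted p under 0.05, against a background of 0% of the genes tested in either direction, and the lowest adjusted p was 0.461. At an unadjusted p under 0.05 there were 14 members above 0 (0.217%) and 25 below (0.387%), where the shares among all genes tested were 2.07% and 2.23%. Both shares of members were under those of the genes at large in this fit, whose estimate of spread also drew on the dim probe sets above the filter. With members only in the fit both counts were higher, as given under the alternatives, so the low shares are not a trait of the bright genes alone. What follows is a description of which genes departed most from additivity and how their arrays lay, not a list of called genes.

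The bright genes departed little. Their interactions had a median of 0.04 and an SD of 0.44, with quartiles at -0.24 and 0.30, and 3478 lay above 0 and 2984 below. Only 83 exceeded 1 and 99 lay under -1, which is 2.82% of them, whereas 29.7% of the tested genes with a dimmer array did. A gene that falls under 50 in any genotype counts among the dimmer ones, however bright its other arrays, so the signal limit itself shapes this contrast. In the same fit the median standard error was 0.54 for the members and 0.81 for the others. In this fit, with its spread shared across bright and dim probe sets, an interaction of 1 was thus within 2 standard errors for most bright genes. At the edge of the signal limit stood Chka, Pald1 and Tapbpl, each with a lowest signal of 49.9 and left out, and Rhoc, Spata2l and Tatdn1, each with a lowest signal of 50 and kept.

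**Figure D1:**
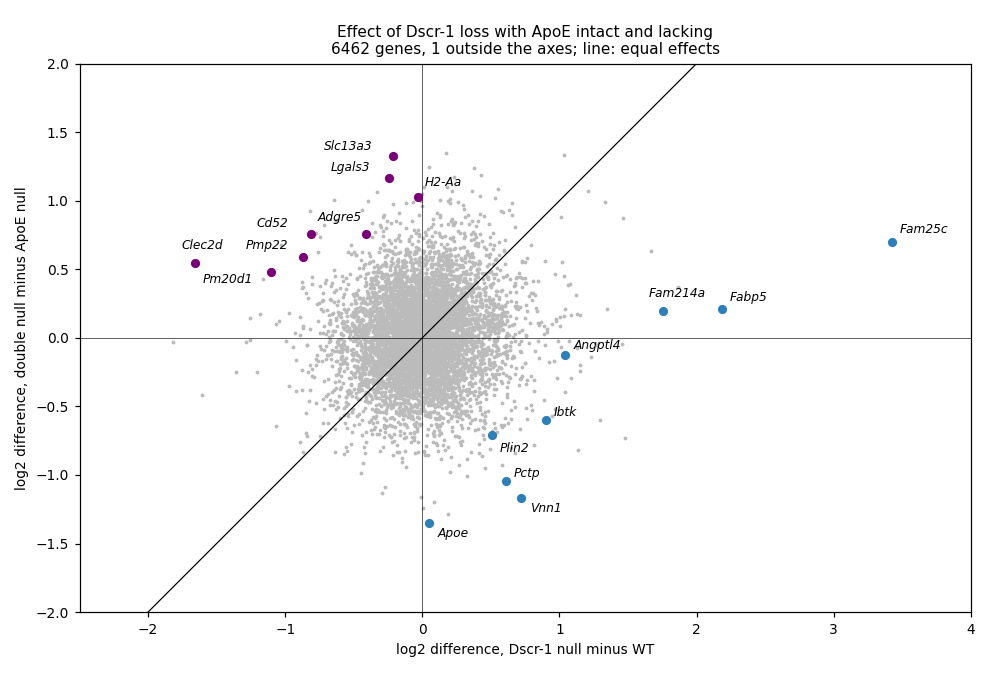
Each point is 1 of 6461 genes, with the log2 difference between Dscr-1 null and WT on the horizontal axis and that between double null and ApoE null on the vertical axis; Ang lies outside the axes at 7.05 and 0.33. The black line marks equal effects, blue points are named genes under it and purple points are named genes over it, and the cloud has an SD of 0.44 for the difference of both effects.

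To ask which genotype set the departure, the arrays of each gene were ordered. A genotype was called apart where its 2 arrays both lay above, or both below, the other 6, and a gene was called crossed where the 4 arrays of WT and double null all lay above, or all below, the 4 arrays of the single nulls. WT arrays were apart and higher in 359 members (5.56%, against 3.8% of all genes tested) and apart and lower in 273 (4.22% against 4.23%). Dscr-1 null arrays were apart and higher in 146 (2.26% against 2.27%) and lower in 133 (2.06% against 3.23%). ApoE null arrays were apart and higher in 157 (2.43% against 3.62%) and lower in 307 (4.75% against 4%).

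Double null arrays were apart and higher in 247 members (3.82% against 4.14%) and lower in 311 (4.81% against 3.6%). The crossed shape was the rarest, with 66 members whose WT and double null arrays were higher (1.02% against 1.14%) and 67 whose WT and double null arrays were lower (1.04% against 1.21%). Most of these shares lay close to the background and say little about the bright genes as a class.

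**Figure D2:**
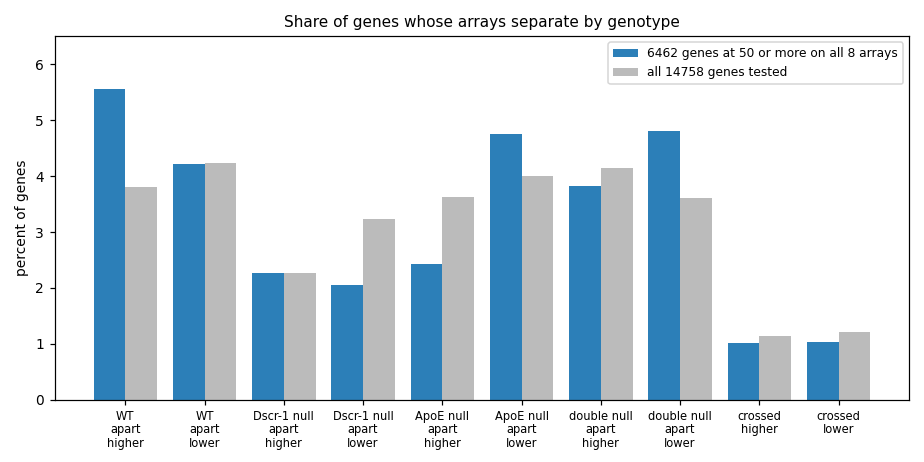
Bars give the percent of genes whose arrays separated in each shape, in blue for the 6462 genes at 50 or more on all arrays and in grey for all 14758 genes tested. The blue bar is the higher for WT apart higher (5.56% against 3.8%), ApoE null apart lower (4.75% against 4%) and double null apart lower (4.81% against 3.6%).

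A stricter description used each of the 16 ways of taking 1 array per genotype. The interaction had the same sign in all 16 for 513 members above 0 (7.94%, against 8.07% of all genes tested) and 442 below (6.84% against 7.5%). The smallest absolute value among the 16, here the smallest departure, ranked the genes named next.

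The farthest departures came from genes in which WT stood apart from all 3 mutant genotypes. Ang, the gene of angiogenin, a secreted ribonuclease, had signals of 82.7 and 93.3 in WT, 8448.9 and 22375.2 in the Dscr-1 null, 14582.4 and 20313.8 in the ApoE null, and 20982.3 and 22270.3 in the double null. All 6 mutant arrays were thus far above both WT arrays and overlapped with each other. Whether the WT mice and the mutant lines differed in strain or in an allele at this locus was not tested. Its interaction was -6.72 (SE 0.71, limma, adjusted p = 0.461), and every 1 of the 16 choices lay between -7.78 and -5.66. The Ang interaction passed the adjusted threshold with members only in the fit (adjusted p = 3.05e-04), with an offset of 64 in place of 16 (adjusted p = 1.52e-06) and with a variance trend (adjusted p = 0.0048). What made the difference between these settings was not tested.

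The probe sets of Ang differed from each other. The one described carries a suffix for probes that may match several transcripts. A second, with 394.2 and 347.0 in WT and 1773.8 to 5268.1 in the mutants, had an interaction of -2.63. The remaining probe set, at 542.2 to 1315.6 with WT inside the range of the mutants, had one of 0.35, and the mean over the probe sets gave -3.00. Levels of Ang are therefore given per probe set and remain uncertain.

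Ang lies on chromosome 14 in RefSeq (GRCm38.p6, 51091077 to 51102009), where Rnase4, another secreted ribonuclease, is annotated from the same start. Within 200 kb of that start 6 members began, and 4 of them, Ang among them, had WT apart, against 5.56% (higher) and 4.22% (lower) of all members. Rnase4 was highest in WT, at 12359.4 and 11506.1, against 7790.5 to 10997.9 on the mutant arrays. Pnp, a purine salvage enzyme that starts 146.8 kb away, had 1817.2 and 1853.1 in WT and 731.0 to 1065.7 in the mutants. Apex1, a DNA repair endonuclease, had 667.4 and 698.5 in WT and 374.8 to 577.4 in the mutants. In these 3 neighbours WT was the highest genotype, whereas in Ang it was the lowest, and they had interactions of 0.66 (Rnase4), 0.96 (Pnp) and 0.27 (Apex1), none of which passed the test. The neighbours were looked at after the values of Ang were seen.

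A similar order held for Fam25c and Fabp5. Fam25c gave 87.3 and 221.5 in WT, 1796.8 and 1545.0 in the Dscr-1 null, 958.2 and 1913.3 in the ApoE null, and 1939.0 and 2530.1 in the double null, so every mutant array was above both WT arrays. Its interaction was -2.72 (SE 0.74, adjusted p = 0.755). Fabp5, a cytosolic fatty acid binding protein, had 1260.5 and 1059.5 in WT, 7356.7 and 3825.7 in the Dscr-1 null, 2280.3 and 6236.6 in the ApoE null, and 3677.2 and 5195.8 in the double null. The 3 mutant genotypes of Fabp5 overlapped, its interaction was -1.97 (SE 0.80, adjusted p = 0.890), and a second Fabp5 probe set gave -1.59. Without ApoE null replicate 2 the Fabp5 interaction was -1.25. Ugt2b38, a glucuronosyltransferase, followed the same shape with 90.3 and 132.0 in WT, 319.6 to 844.9 in the mutants and an interaction of -1.49, which was -0.82 without double null replicate 1.

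Other genes were highest in WT. Clec2d, a C-type lectin that binds NKR-P1 receptors of natural killer cells, had 457.5 and 567.2 in WT, 202.2 and 111.5 in the Dscr-1 null, 81.1 and 77.4 in the ApoE null, and 106.3 and 142.4 in the double null. All mutant arrays lay under both WT arrays, the double null lay over the ApoE null and overlapped with the Dscr-1 null, and the interaction was 2.20 (SE 0.57, adjusted p = 0.755). Pm20d1, a secreted enzyme that joins fatty acids to amino acids, had 1084.0 and 918.8 in WT, 477.5 and 435.1 in the Dscr-1 null, 507.8 and 330.6 in the ApoE null, and 586.9 and 571.8 in the double null. At this probe set of Pm20d1 the double null arrays were the highest of the 6 mutant arrays, and the interaction was 1.59 (SE 0.52, adjusted p = 0.790). At a second Pm20d1 probe set WT was again highest, at 862.2 and 834.3, but the double null, at 383.6 and 344.4, lay under the ApoE null, at 436.6 and 419.1, and the interaction was 0.87.

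H2ac19, a histone H2A gene of a multigene family whose copies the probes may not separate, had 1331.8 and 743.2 in WT against 343.5 to 517.1 on the mutant arrays and an interaction of 1.59, and a second probe set had the same direction. Cyp2a12, a liver cytochrome P450, had 8904.7 and 10278.6 in WT, 6305.8 and 5813.4 in the Dscr-1 null, 4726.5 and 4631.3 in the ApoE null, and 6607.6 and 5804.0 in the double null. The double null overlapped with the Dscr-1 null there and stayed above the ApoE null, with an interaction of 1.06 (SE 0.48, adjusted p = 0.933). Bckdhb, a subunit of the branched-chain ketoacid dehydrogenase, had 1738.8 and 1116.4 in WT against 485.7 to 717.0 in the mutants and an interaction of 0.96.

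**Figure D3:**
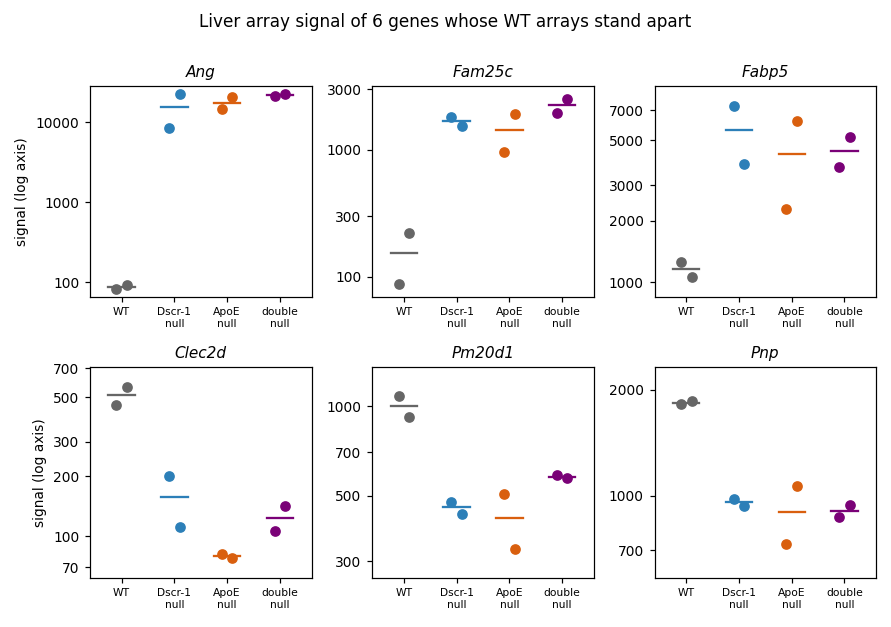
Signal on a log axis for 6 genes, each at its brightest probe set, with a point per array, 2 per genotype, and a bar at the mean of each genotype. WT lies under all mutant arrays for Ang, Fam25c and Fabp5 (1260.5 and 1059.5 against at least 2280.3) and over all of them for Clec2d, Pm20d1 and Pnp.

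The promoter windows of 4 of the members whose arrays separated are shown because the deleted inhibitor acts on NFAT, and these windows let the letters be read beside the values. Each runs from 250 bases before to 50 bases after a RefSeq transcript start (GRCm38.p6), 5′ to 3′ on the strand of the gene. They are chr14:51090827-51091126 for Ang, chr6:129180365-129180664 for Clec2d, chr11:63128732-63129031 for Pmp22, all on the plus strand, and chr11:6200402-6200701 for Nudcd3 on the minus strand. Capitals mark the NFAT core TGGAAA, the IRF core GAAANNGAA and the E-box CACGTG on either strand, and the window of Ang holds none of them. Pmp22 has 4 windows, of which the one farthest upstream is shown. It was picked with its matches known: it holds 2 NFAT cores, whereas 1 of the others holds 1 and the remaining 2 hold none.
Ang: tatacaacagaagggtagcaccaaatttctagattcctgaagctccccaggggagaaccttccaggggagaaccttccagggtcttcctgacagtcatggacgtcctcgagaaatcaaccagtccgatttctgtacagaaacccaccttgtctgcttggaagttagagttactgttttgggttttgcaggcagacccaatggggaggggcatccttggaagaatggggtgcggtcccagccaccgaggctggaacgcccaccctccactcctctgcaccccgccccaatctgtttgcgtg
Clec2d: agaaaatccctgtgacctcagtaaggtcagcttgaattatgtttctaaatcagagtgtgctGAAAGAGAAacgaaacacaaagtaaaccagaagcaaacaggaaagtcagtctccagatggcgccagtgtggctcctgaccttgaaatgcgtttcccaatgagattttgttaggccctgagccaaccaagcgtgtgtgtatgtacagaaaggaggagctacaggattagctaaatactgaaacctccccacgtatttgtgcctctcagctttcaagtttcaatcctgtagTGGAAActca
Pmp22: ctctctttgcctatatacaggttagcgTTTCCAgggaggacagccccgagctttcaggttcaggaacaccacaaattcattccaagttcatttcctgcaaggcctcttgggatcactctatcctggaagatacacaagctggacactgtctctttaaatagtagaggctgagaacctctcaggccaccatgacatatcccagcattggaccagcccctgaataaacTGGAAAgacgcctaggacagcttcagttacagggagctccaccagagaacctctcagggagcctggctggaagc
Nudcd3: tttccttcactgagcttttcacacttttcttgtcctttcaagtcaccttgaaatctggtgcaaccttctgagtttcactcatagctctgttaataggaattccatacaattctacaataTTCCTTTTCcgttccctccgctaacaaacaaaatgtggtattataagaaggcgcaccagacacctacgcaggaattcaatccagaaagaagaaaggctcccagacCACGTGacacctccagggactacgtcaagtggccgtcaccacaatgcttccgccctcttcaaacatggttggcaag

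Among the members above 0 at an unadjusted p under 0.05, 5 of 18 windows held the NFAT core (27.8%). Among those below 0 it was 3 of 30 windows (10%), and all 3 belong to Apoe, the deleted gene. The shares were 16.2% of the 6846 windows of all members and 17.7% of those of all genes tested. The IRF core stood in 11.1% of the windows above 0 and 20% of those below, against 6.88% of all members' windows and 7.2% of all genes tested. The E-box stood in 11.1% and 23.3%, against 10.6% and 9.09%. Of the 14 and 25 genes, 10 and 20 had a window, and several windows belong to the same gene and overlap. A match describes letters and was not tested.

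Among the genes whose single nulls lay above both WT and double null were 3 tied to lipids, Pctp, Vnn1 and Plin2, and others that are not. Pctp, which carries phosphatidylcholine between membranes, had 378.6 and 487.1 in WT, 666.1 and 661.9 in the Dscr-1 null, 807.3 and 726.3 in the ApoE null, and 473.3 and 277.6 in the double null. All 4 single-null arrays were above the other 4, and WT and double null overlapped. A second, dimmer Pctp probe set was not crossed, with 120.3 and 97.0 in WT, 101.7 and 86.4 in the Dscr-1 null, 102.7 and 188.0 in the ApoE null, and 61.1 and 69.8 in the double null, and its interaction was -0.76. At the brighter one the interaction was -1.65 (SE 0.55, adjusted p = 0.793) and lay between -2.28 and -1.03 over the 16 choices. Dscr-1 loss went with a log2 difference of 0.61 where ApoE was intact and of -1.04 where it was lacking.

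Vnn1, a pantetheinase that is a target of PPAR-alpha, had the same order at its brighter probe set. Its signals were 568.6 and 501.6 in WT, 879.1 and 904.3 in the Dscr-1 null, 1588.4 and 737.0 in the ApoE null, and 537.7 and 415.4 in the double null. The interaction was -1.89 (SE 0.63, adjusted p = 0.790). It moved to -1.35 without ApoE null replicate 1, its highest array, and passed the adjusted threshold only with a variance trend (adjusted p = 0.0244). A second, dimmer Vnn1 probe set was not crossed, and its interaction was -2.16. It had 99.8 and 196.5 in WT and 386.1 and 333.4 in the Dscr-1 null. In the ApoE null it had 734.0 and 230.0, and in the double null 316.3 and 142.2.

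Plin2, the protein that coats lipid droplets in hepatocytes, had 3420.2 and 3828.2 in WT, 5529.2 and 4793.1 in the Dscr-1 null, 5621.2 and 6819.0 in the ApoE null, and 4437.4 and 3216.5 in the double null. The single nulls again did not overlap with the other 2 genotypes, and the interaction was -1.22 (SE 0.51, adjusted p = 0.902). Ibtk, an inhibitor of Bruton's tyrosine kinase, had 114.6 and 127.3 in WT, 206.4 and 277.4 in the Dscr-1 null, 263.4 and 310.7 in the ApoE null, and 178.6 and 188.9 in the double null. Its double null arrays lay between WT and the single nulls rather than at the level of WT, with an interaction of -1.50 (SE 0.50, adjusted p = 0.793). Nudcd3, a cofactor of the chaperone machinery, had 74.8 and 71.9 in WT, 72.6 and 70.9 in the double null, and between 99.6 and 143.1 on the 4 single-null arrays, with an interaction of -1.18. Kat8, a histone H4 acetyltransferase, had 50.4 to 61.3 in WT and double null, 84.7 to 136.6 in the single nulls and an interaction of -1.27.

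The opposite crossing, with single nulls under both other genotypes, held for Pmp22, a myelin membrane protein also made outside nerve. It had 180.8 and 153.7 in WT, 92.2 and 76.5 in the Dscr-1 null, 121.4 and 111.0 in the ApoE null, and 176.8 and 188.2 in the double null. WT and double null overlapped at the top, and the interaction was 1.46 (SE 0.48, adjusted p = 0.793), with 1.14 as its smallest departure. Crnkl1, a splicing factor, had 103.2 to 129.6 in WT and double null and 69.3 to 86.3 in the single nulls. Osbpl11, an oxysterol-binding protein homologue, had 287.7 to 323.6 in WT and double null against 208.6 to 245.5 in the single nulls. Their interactions were 0.87 (Crnkl1) and 0.84 (Osbpl11), neither past the test. At a dimmer probe set Osbpl11 was not crossed, and its interaction was 0.96. The double null there, at 179.6 and 161.3, overlapped with the Dscr-1 null, at 120.9 and 181.6, and lay under WT, at 220.4 and 214.9.

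**Figure D4:**
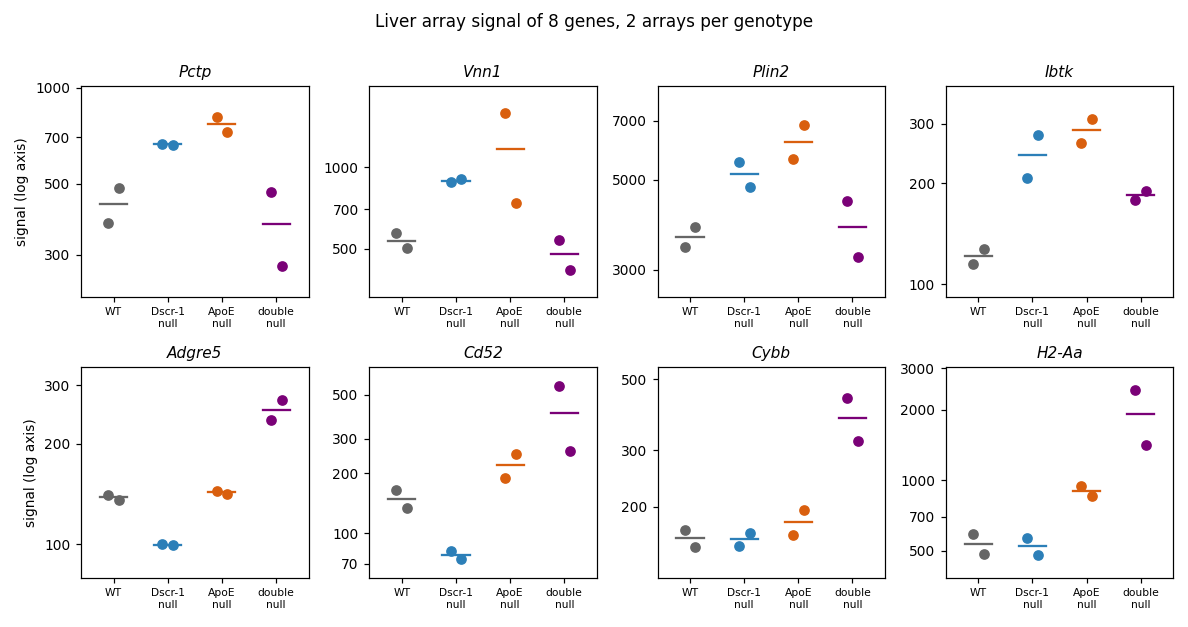
Signal on a log axis for 8 genes, with a point per array, 2 per genotype, and a bar at the mean of each genotype. In the upper row the single nulls lie over WT and double null (for Plin2, at least 4793.1 against at most 4437.4), and in the lower row the double null lies over all other arrays (for Cybb, 436.5 and 320.1 against at most 195.7).

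Several genes that leukocytes express were highest in the double null. Adgre5, the leukocyte adhesion receptor CD97, had 140.2 and 136.2 in WT, 100.5 and 99.4 in the Dscr-1 null, 144.9 and 141.5 in the ApoE null, and 235.1 and 271.2 in the double null. The Dscr-1 null lay under WT, the ApoE null just over it, and the double null over all other arrays. The interaction was 1.17 (SE 0.47, adjusted p = 0.890), with 1.03 as its smallest departure.

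Cd52, a surface glycoprotein of lymphocytes and monocytes, had 165.6 and 133.2 in WT, 81.2 and 74.4 in the Dscr-1 null, 188.8 and 250.7 in the ApoE null, and 550.4 and 260.1 in the double null. Its order was Dscr-1 null, WT, ApoE null, double null without overlap, and the interaction was 1.57 (SE 0.62, adjusted p = 0.876). Cybb, the catalytic subunit of the phagocyte NADPH oxidase, had 149.7 to 195.7 on the arrays of the first 3 genotypes, with overlap, and 436.5 and 320.1 in the double null. Its interaction was 1.01 (SE 0.51, adjusted p = 0.963), and a second, dimmer probe set gave 0.29.

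H2-Aa, the alpha chain of a class II major histocompatibility (MHC) molecule, had 587.8 and 485.3 in WT, 566.7 and 480.4 in the Dscr-1 null, 946.6 and 858.4 in the ApoE null, and 2426.3 and 1420.3 in the double null. Dscr-1 null and WT overlapped, ApoE null lay above both, and double null above all, with an interaction of 1.06 (SE 0.56, adjusted p = 0.980) and 0.95 at a second probe set. Cd74, the invariant chain that guides class II molecules, had 292.8 and 246.1, 240.8 and 195.3, 492.4 and 318.9, and 1081.2 and 440.3 in the same order of genotypes. One double null array of Cd74 lay within the range of the ApoE null, so this gene did not separate, and its interaction was 1.07. Without double null replicate 1 the interaction was 0.68 for H2-Aa and 0.43 for Cd74. Of the 9 members of the antigen presentation list 7 lay above 0 and 2 below, with a median of 0.60 against 0.04 for all members. In 4 of the 9 the double null was apart and higher. Of the class I genes, H2-D1 had an interaction of 0.13, H2-K1 of -0.27 and B2m of -0.33. The list median was 0.03 without double null replicate 1 and 0.93 without double null replicate 2.

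Markers of macrophages and Kupffer cells moved with these genes. Of 22 listed genes 15 were members, and all 15 had an interaction above 0, against 53.8% of all members, with a median of 0.51, although none reached an unadjusted p under 0.05. In 8 of the 15 both double null arrays were above the other 6, against 3.82% of all members and 4.14% of the genes tested. Dscr-1 loss went with a median log2 difference of -0.11 in these genes where ApoE was intact and of 0.60 where it was lacking. Lgals3, which encodes galectin-3, a lectin of macrophages, gave 132.5 and 138.9 in WT, 131.2 and 95.1 in the Dscr-1 null, 1044.2 and 387.8 in the ApoE null, and 2008.3 and 1051.0 in the double null, with an interaction of 1.41 (SE 0.77, adjusted p = 0.994). The 2 ApoE null arrays of Lgals3 differed more from each other than the higher of them did from the lower double null array, and without ApoE null replicate 2 the interaction was 0.72.

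Lyz2, macrophage lysozyme, had 268.7 to 333.1 where ApoE was intact, 901.9 and 689.6 in the ApoE null, and 1557.0 and 932.7 in the double null, with an interaction of 0.70, or 0.33 without double null replicate 1. Ctss, the protease cathepsin S, had 0.75, and Cd5l, a secreted Kupffer cell protein, had 0.46. Clec4f and Adgre1, which define Kupffer cells and macrophages, had 0.40 and 0.14, and in neither were the double null arrays apart. The summed signal of the 15 genes was 7290 and 9456 in WT, 9220 and 7602 in the Dscr-1 null, 18616 and 11909 in the ApoE null, and 27495 and 18020 in the double null, so ApoE null replicate 1 lay above the lower double null array. The median interaction was 0.25 without ApoE null replicate 2, 0.20 without double null replicate 1 and 0.93 without double null replicate 2. More cells of a type and more RNA per cell cannot be told apart in whole liver, and the part of the marker shift in Adgre5, Cd52, Cybb and the class II genes was not tested.

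No listed marker of neutrophils or of T, NK and B lymphocytes was a member. Of the lymphocyte markers Cd3d was the dimmest and stayed at or below 10 on all arrays. Others were brighter. Gzma ran from 34.1 to 93.8, and Ighm from 11.6 to 374.2, with 221.0 and 12.7 in the double null. S100a8, a neutrophil protein, had 168.6 and 180.5 in the double null against 29.9 to 91.8 on the other arrays, and its partner S100a9 had 172.4 and 102.9 against 7.5 to 69.9. Both were thus highest in the double null, as were the leukocyte and class II genes that separated. The other 5 tested neutrophil markers (Ngp, Camp, Ltf, Mmp8 and Csf3r) overlapped between the double null and the rest. The part of neutrophils in these differences was not tested. Endothelial markers of the sinusoid, 8 members, had a median interaction of 0.08, and markers of stellate cells and fibroblasts, 7 members, of 0.32, with 5 above 0 and 2 below. Hepatocyte markers, 7 members, had -0.01.

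In other members 1 of the single nulls was apart. Fam214a had 189.3 and 267.9 in WT, 791.3 and 805.3 in the Dscr-1 null, 351.1 and 408.5 in the ApoE null, and 426.1 and 447.1 in the double null, so the Dscr-1 null was highest and the other mutants lay between it and WT. Its interaction was -1.56 (SE 0.50, adjusted p = 0.784), and a second probe set gave -0.97. Angptl4, a secreted inhibitor of lipoprotein lipase and a target of PPAR-alpha, had 404.6 and 357.4 in WT, 870.3 and 737.0 in the Dscr-1 null, 489.7 and 447.1 in the ApoE null, and 338.6 and 541.7 in the double null. The Dscr-1 null was apart and higher there, the other 3 overlapped, and the interaction was -1.17 (SE 0.54, adjusted p = 0.934). Id2, a transcriptional repressor, was lowest in the Dscr-1 null at 380.9 and 178.6, against 610.1 to 1071.7 elsewhere, with an interaction of 1.19, which was 0.67 without Dscr-1 null replicate 2 and 0.57 at a second probe set. Zdhhc14, a palmitoyltransferase, was lowest there too, at 110.1 and 74.2 against 183.1 to 324.8, with 1.26. At 2 further probe sets of Zdhhc14 the Dscr-1 null was not apart, and the interactions were 0.26 and 0.22, so that the mean over probe sets was 0.58. Gpx3, a secreted glutathione peroxidase, had 55.4 and 67.0 in the Dscr-1 null against 110.6 to 194.5 elsewhere, with 1.20.

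The ApoE null was lowest for Stip1, a cochaperone of Hsp70 and Hsp90, at 60.6 and 104.3 against 152.4 to 197.6 on the other 6 arrays, with an interaction of 1.18 (SE 0.52, adjusted p = 0.922). It was lowest also for Pikfyve, a lipid kinase of endosomes, at 84.9 and 93.7 against 136.2 to 165.5, and for Eif2s2, a subunit of the translation factor eIF2, at 663.6 and 899.8 against 1269.5 to 1909.0. The other 4 probe sets of Eif2s2 with signals at 50 or more gave interactions between -0.11 and 0.32, against 0.85 for the brightest. The ApoE null was highest for Paqr7, a membrane progestin receptor, at 538.3 and 329.6 against 203.1 to 232.8 elsewhere, and the interaction was -0.78, or -0.44 without ApoE null replicate 1.

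The double null was lowest for Washc3, a subunit of the WASH complex of endosomes, at 107.2 and 115.3 against 202.7 to 374.7 on the other arrays, with an interaction of -1.47 (SE 0.54, adjusted p = 0.839). Naa30, an N-terminal acetyltransferase, had 161.1 and 173.7 against 282.3 to 357.4, and Mrpl43, a mitochondrial ribosomal protein, had 200.5 and 195.9 against 321.2 to 486.0. It was highest for Slc13a3, a dicarboxylate transporter, at 232.2 and 251.9 against 59.2 to 164.7, with an interaction of 1.54, and for Plekhm1, a lysosomal adaptor, at 209.3 and 234.6 against 88.1 to 130.2, with 0.92. Without ApoE null replicate 2, the lowest array of Slc13a3, its interaction was 1.08. A second Slc13a3 probe set, at 46.0 to 100.6, had the double null inside the range of the others and an interaction of 0.05. Dimmer ones, with highest signals of 53.8 and 34.2, gave 1.19 and -0.59. Apoe itself, deleted in both genotypes of the first bracket of the contrast, had an interaction of -1.40, set by residual signals of 305.0 and 177.1 against 83.7 and 79.8.

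Lists of genes for lipid metabolism lay below 0 in part, without a gene past the adjusted test. Of 16 members for fatty acid oxidation and PPAR-alpha targets 12 lay below 0 and 4 above, with a median of -0.28. Ppara itself had 1084.3 and 601.9 in WT, 1605.4 and 1635.3 in the Dscr-1 null, 1612.8 and 1393.0 in the ApoE null, and 1544.3 and 1405.0 in the double null. WT was apart and lower there, each loss came with a difference near that of both, and the interaction was -1.01 (SE 0.56, adjusted p = 0.996). It was -0.60 without WT replicate 2, and 2 further Ppara probe sets gave -0.52 and -0.39. The enzymes of the pathway lay near additivity, with Cpt1a, the carnitine transferase at the entry of mitochondria, at -0.31, Acadm at -0.26 and Acadl at 0.11. Slc25a20, the carnitine carrier, was on the other side at 0.53.

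Of 13 apolipoprotein members 11 lay below 0, with a median of -0.33. Apart from Apoe the values were between -0.95 for Apoa4 and 0.62 for Apom, and both of these genes varied widely within genotypes, with Apom at 218.2 and 1715.1 in the ApoE null. Apoc1 had -0.75, or -0.33 without ApoE null replicate 1, Apoc2, the activator of lipoprotein lipase, -0.71, and Apoa1, the main protein of HDL, -0.28. Of 11 lipid droplet and triglyceride members 7 lay below 0 with a median of -0.23, which turned to 0.05 without Dscr-1 null replicate 1 and to 0.09 without double null replicate 2. Plin2 led that list, while Plin5 had 0.03 and Cideb -0.12.

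Cholesterol synthesis had the lowest median of the 28 lists with 5 or more members. Of 13 members 11 lay below 0, with a median of -0.44, and Dscr-1 loss went with a median of 0.11 where ApoE was intact and -0.28 where it was lacking. Idi1, the isomerase that makes dimethylallyl diphosphate, had 156.6 and 142.2 in WT, 226.4 and 240.3 in the Dscr-1 null, 201.8 and 627.6 in the ApoE null, and 195.4 and 258.0 in the double null, with an interaction of -1.23 (SE 0.74, adjusted p = 1). Cyp51, a sterol demethylase, had 96.1 and 316.2 in the ApoE null against 158.2 and 178.1 in the double null. Sc5d, which acts late in the pathway, had 1480.6 and 3796.2 against 1640.9 and 1535.9.

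The pathway differed most between the 2 ApoE null arrays, with a summed signal of 5566 and 11419 against 5840 to 7138 on the other 6. Leaving out ApoE null replicate 1 gave a list median of -0.94, leaving out replicate 2 gave 0.03, and 7 of 13 members lay above 0 in the latter case. The interaction of this list therefore rested on which ApoE null liver was read. Fads2 and Elovl5, which desaturate and elongate fatty acids under SREBP control, had interactions of -1.18 and -1.03, and ApoE null replicate 2 was their highest or second highest array as well. The 19 members for fatty acid synthesis as a list had a median of 0.06.

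**Figure D5:**
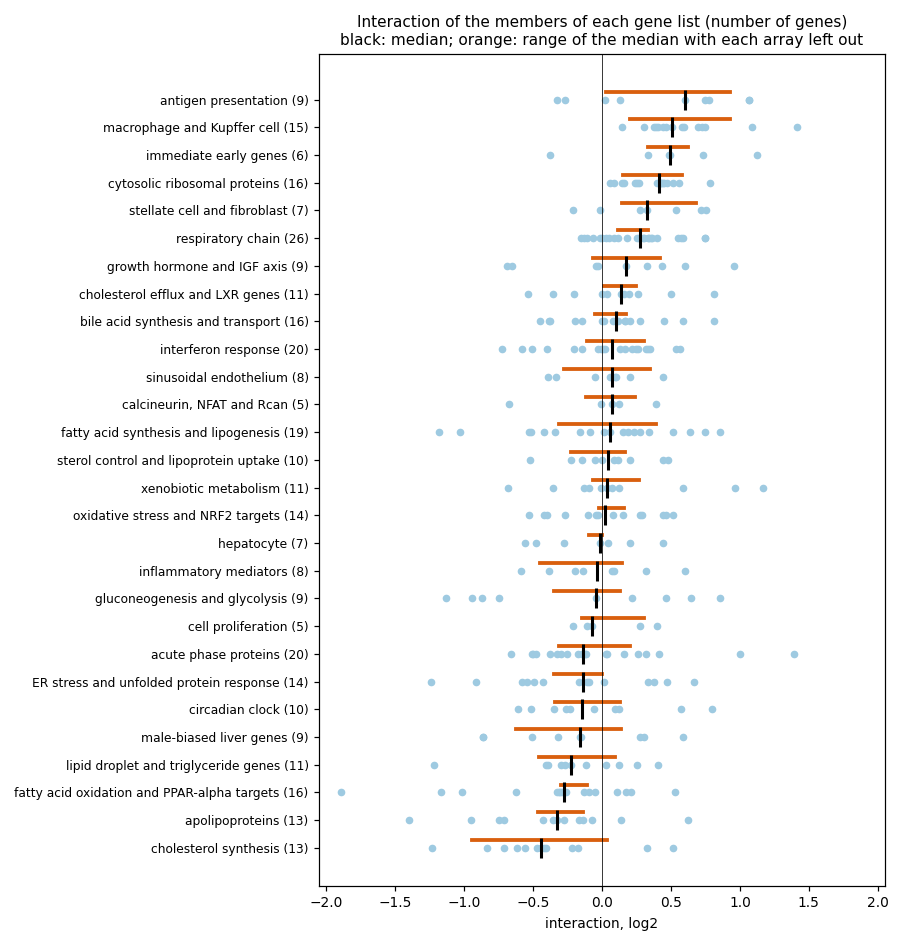
Interaction on the log2 scale of every member of the 28 gene lists with 5 or more members (blue points), their median (black bar) and the range of that median with each of the 8 arrays left out in turn (orange line). Cholesterol synthesis runs from -0.94 to 0.03 and macrophage markers from 0.20 to 0.93 across the arrays left out.

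The regulators the study ties to the liver did not depart clearly. Srebf2, the SREBP factor of cholesterol synthesis, had 93.7 and 149.0 in WT, 69.6 and 106.5 in the Dscr-1 null, 127.3 and 138.4 in the ApoE null, and 171.4 and 60.9 in the double null, and the genotypes overlapped. Its interaction was 0.08 (SE 0.71, adjusted p = 1). Srebf1 had 0.48, Scap, the escort of both SREBP factors, -0.53 and Insig1, which retains them in the endoplasmic reticulum, 0.44. Rcan1 had -0.68 with choices from -2.49 to 1.13. The calcineurin subunits Ppp3ca, Ppp3cb and Ppp3r1 had 0.39, 0.07 and 0.12, and Nfatc3 had -0.01, while Nfatc1 and Nfatc2 had an array under 50.

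Of 14 members for endoplasmic reticulum (ER) stress 9 lay below 0, with a median of -0.14. The transcription factors Atf4, Atf6 and Xbp1 had interactions of -0.09, 0.47 and 0.34, and their arrays overlapped between genotypes. At further probe sets with all signals at 50 or more, Atf6 turned sign to -0.26 and Atf4 had -0.03. Those of Xbp1 gave -0.04, 0.64 and 0.16. Eif2ak3, the ER stress kinase PERK, had 89.5 and 141.5 in WT, 83.0 and 152.9 in the Dscr-1 null, 213.0 and 196.6 in the ApoE null, and 97.5 and 61.1 in the double null. ApoE null was apart and higher there, and the interaction was -1.24 (SE 0.62, adjusted p = 0.962). Ddit3, which encodes CHOP, had -0.92, or -0.46 without ApoE null replicate 1, and Hspa5, the chaperone BiP, -0.11. The 14 members for oxidative stress and NRF2 targets had a median of 0.02, with 7 on either side of 0.

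Ribosomal proteins and the respiratory chain lay above 0 as lists. All 16 ribosomal protein members had interactions above 0, from 0.06 for Rpl7 to 0.79 for Rps2, with a median of 0.41, and none reached an unadjusted p under 0.05. Ribosomal protein genes have many processed copies that their probes may also match. Of 26 respiratory chain members 20 lay above 0, with a median of 0.27 and with Ndufv1 and Uqcrc2 at the top at 0.75 each. These values moved with the array that stood apart: the summed ribosomal protein signal was 40981 on ApoE null replicate 1 and 50738 to 59064 on the other 7. Without it the median was 0.15 for ribosomal proteins, with 11 of 16 above 0, and 0.11 for the respiratory chain, and quantile normalization of all arrays gave 0.29 and 0.18. The median over all members was -0.03 without that array, and 47.2% of members then lay above 0.

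Genes of gluconeogenesis spread on both sides. Foxo1, a factor that insulin restrains, had 295.1 and 349.4 in WT, 668.5 and 678.4 in the Dscr-1 null, 533.5 and 416.5 in the ApoE null, and 465.2 and 602.7 in the double null. WT was apart and lower, the interaction was -0.87, and 2 further probe sets of Foxo1 gave 0.12 and 0.49. Pck1 had -0.95 and G6pc, the last enzyme of glucose release, 0.86. Among xenobiotic genes Cyp1a2 had 6757.1 to 12861.9 in the first 3 genotypes and 11566.6 and 16109.6 in the double null, with an interaction of 0.97.

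Acute phase proteins gave a median of -0.14 over 20 members, with Hamp, the iron hormone hepcidin, at 1.39. The value of Hamp came from ApoE null replicate 1, at 3298.6 against 9595.6 to 15700.6 elsewhere, and was 0.35 without that array. Saa1 and Saa2, the inducible serum amyloid proteins, varied so widely within genotypes, for Saa1 from 686.5 to 6559.2 in WT, that their 16 choices ran from -4.49 to 3.48 and from -3.56 to 3.32. The interferon response list, 20 members, had a median of 0.08. The bile acid list, 16 members, had 0.10, the circadian list, 10 members, -0.15, and cell proliferation, 5 members, -0.07.

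Where a named gene had a further probe set with all signals at 50 or more, the direction was mostly shared. Of 60 such probe sets of 40 genes 48 had the sign of the brightest, and 6 of 7 did among the genes ranked by smallest departure. The exception among the latter was the flat probe set of Ang.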

How the data were processed

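RNA of 8 whole livers was measured on Affymetrix Mouse Genome 430 2.0 arrays. The deposited liver values are intensities that the authors computed with the MAS5 algorithm of GeneChip Operating Software, which sets the average signal of each array to 100 and corrects no other array-wide difference. In their notes on processing the submitters also list Transcriptome Analysis Console. The 4 aortic columns were deposited as log2 values of unstated normalization and were not used. Of 45037 probe sets (45101 rows less 64 controls) the platform annotation gave 34945 a gene, 932 several and 9160 none. Each gene was read from the probe set brightest by mean log2(signal + 16), and tested where this lay over the median of the array on 2 or more of 8 arrays, as 32005 probe sets did. A mean per genotype was fitted with limma 3.58.1 in R 4.3.3 (4 residual and 3.85 prior degrees of freedom), and p-values were adjusted by Benjamini-Hochberg over those probe sets. The number of arrays limits the precision. The code was tested on simulated data.

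Members and gene lists (37 lists, 596 genes, 339 of them members) were chosen with earlier results of these data known. Named genes were those past the adjusted threshold, the 8 with the largest smallest departure in each direction, up to 4 per shape with the widest gap, up to 3 per list with the lowest p, and genes the study ties to liver. The other list members, neighbours of Ang and genes at the signal limit were named beside them after their values were seen. Alternatives were the offset (1 or 64), quantile normalization, no filter, members only, a variance trend with robust estimation, the mean of probe sets, a replicate block, other signal minima (25 or 100), linear signals and each array left out. Python 3 wrote the tables.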

Additional observations from a re-analysis of the deposited data

How the results depend on the processing

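No alternative brought a member above 0 past the adjusted threshold of 0.05, and below 0 the count was 1 with members only in the fit (Ang), 1 with an offset of 64 (Ang) and 2 with a variance trend (Ang and Vnn1). The counts at an unadjusted p under 0.05, 14 above 0 and 25 below, were 108 and 118 with members only in the fit, 56 and 56 with an offset of 64, 113 and 111 with a variance trend, 26 and 48 with a signal minimum of 25, and 4 and 11 with a minimum of 100. With the replicate number as a block they were 11 and 16, with 0 and 0 past the adjusted threshold. The same numbers did not pair the arrays, since deviations of same-numbered arrays correlated between -0.00155 and 0.0293. Leaving out each array in turn gave 5 to 51 above 0 and 10 to 39 below, both highest without ApoE null replicate 2, and 0 past the adjusted threshold.

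Of 2295 values of 135 named genes under the alternatives 2252 kept direction and side of the threshold, 4 in 2 genes passed it (Ang and Vnn1) and 39 in 18 genes turned sign. Quantile normalization turned Fabp1 (0.0406), Ttr (0.0451), Krt18 (-0.0333) and Car3 (0.13), the mean of probe sets turned Car3 (0.61), and linear signals turned the Krt18 interaction (-73.7 signal units). With 1 array left out the interaction ran from -0.98 to 0.20 for Fabp1, -0.86 to 0.59 for Kdm5d, -1.38 to 0.0294 for Rcan1, -0.26 to 0.50 for Ppp3r1, -0.066 to 0.99 for Gpx4, -0.27 to 1.48 for Ccl6 and -0.44 to 0.22 for Pcna. It ran from -0.0345 to 0.92 for Ahsg, -0.14 to 1.03 for Cdh5, -0.98 to 0.32 for Kdr, -0.55 to 0.66 for Krt18, -0.87 to 0.28 for Fabp4, -0.67 to 0.43 for Car3 and -0.30 to 1.13 for Cela1. For Srebf2 it ran from -0.56 to 0.73, for Irf1 from -0.49 to 0.0846 and for Atf4 from -0.36 to 0.17. The causes were not tested. With 1 array left out a genotype keeps 1 array, which is assumed to vary like the others.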

Other observations

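Hprt, a purine salvage enzyme often used as a reference gene, was not among the genes described because its signal was under 50 on a WT array. It had 46.9 and 54.8 in WT, 819.7 and 65.9 in the Dscr-1 null, 1018.7 and 933.3 in the ApoE null, and 884.2 and 912.6 in the double null. The 2 Dscr-1 null arrays thus lay on opposite sides of a wide gap, with replicate 2 near WT and replicate 1 near the other mutants. Whether the mice differed in strain or in an allele at this gene was not tested.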
